A study of Mus musculus with 8 samples.

Results

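The Akr1 genes encode aldo-keto reductases, and the kidney cortex of aged and young mice was compared for 10 of them, found by symbol among the 22609 genes of each mouse's count table: Akr1b3, Akr1b7, Akr1b8, Akr1c12, Akr1c13, Akr1c14, Akr1c18, Akr1c19, Akr1c21 and Akr1e1. The list was drawn up around Akr1c13, which was selected on its measured difference between the groups in these same count tables, so all aged against young values of these genes are given as a description. Cortex RNA was taken from 4 aged male C57BL6 mice, labelled 30 months old, and from 4 young male C57BL6 mice, labelled 5 months old, none of them treated. Ribosomal RNA was depleted from total RNA, stranded libraries were sequenced as read pairs, and each mouse gave 1 library. The model is thus a single sex of a single inbred strain at 1 old and 1 young age, sampled as whole cortex.

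Aldo-keto reductases use NADPH or NADH to turn aldehydes and ketones into alcohols, and many run in the opposite direction as well. The Akr1b enzymes include aldose reductase, which makes sorbitol from glucose, and enzymes that clear reactive aldehydes. The Akr1c enzymes are largely hydroxysteroid dehydrogenases, which switch steroid hormones between more and less active forms. In the kidney, such enzymes are known for polyol synthesis and for the metabolism of steroids and foreign compounds in the proximal tubule.

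Each library held between 14.8M and 19.8M read pairs counted on genes. Levels are given as CPM (counts per 1M pairs counted on genes) after TMM scaling, which corrects each library's total for differences in composition. At this depth 3 counts, the lowest level treated as measurable, corresponded to 0.147 to 0.204 CPM, which covers counting error only. Markers of the first segments of the proximal tubule (S1 and S2, 10 genes) summed to 26655 to 31932 CPM in 7 mice and to 18305 CPM in aged mouse 1. Adipose markers (7 genes) summed to 411 CPM in aged mouse 1 and to 26.3 to 102 CPM in the other 7. Aged mouse 1 thus stood apart from the other libraries on these markers. Slc14a2, listed below with the osmotic response, was at 89.2 CPM in aged mouse 1 and 26.7 CPM in young mouse 1. It was at 0 to 0.327 CPM in the other mice. Whether the tissue pieces differed was not tested. Podocyte markers, which come from the glomeruli of the cortex, summed to 315 to 611 CPM over the 8 mice.

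Akr1c12 and Akr1c13 were the members with a higher level in aged mice past both thresholds, 1.44 ± 0.13 (log2 fold change ± SE) for Akr1c13 and 1.98 ± 0.28 for Akr1c12. A gene counted as changed where its adjusted p was under 0.05 and its fold over 1.5 in edgeR's quasi-likelihood fit over all 13944 genes that passed a filter on low counts. Of the 10 members, 9 had at least 1 count and 8 passed that filter. Among those 8, 2 passed both thresholds, both higher in aged mice, beside 2.06% of all genes tested in either direction, 1.17% higher and 0.889% lower in aged mice. With the adjusted p alone the members were 3, adding Akr1c19, beside 2.95% of all genes. The median log2 fold change of the 8 was 0.19, with 4 above 0 and 4 below 0, and that of all genes tested was 0.03. Since the members were listed with this comparison in view, these counts are a description. In bulk tissue a gene can be lower because fewer cells of a type were present or because each cell held less of its RNA, and these cannot be told apart here.

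**Figure D1:**
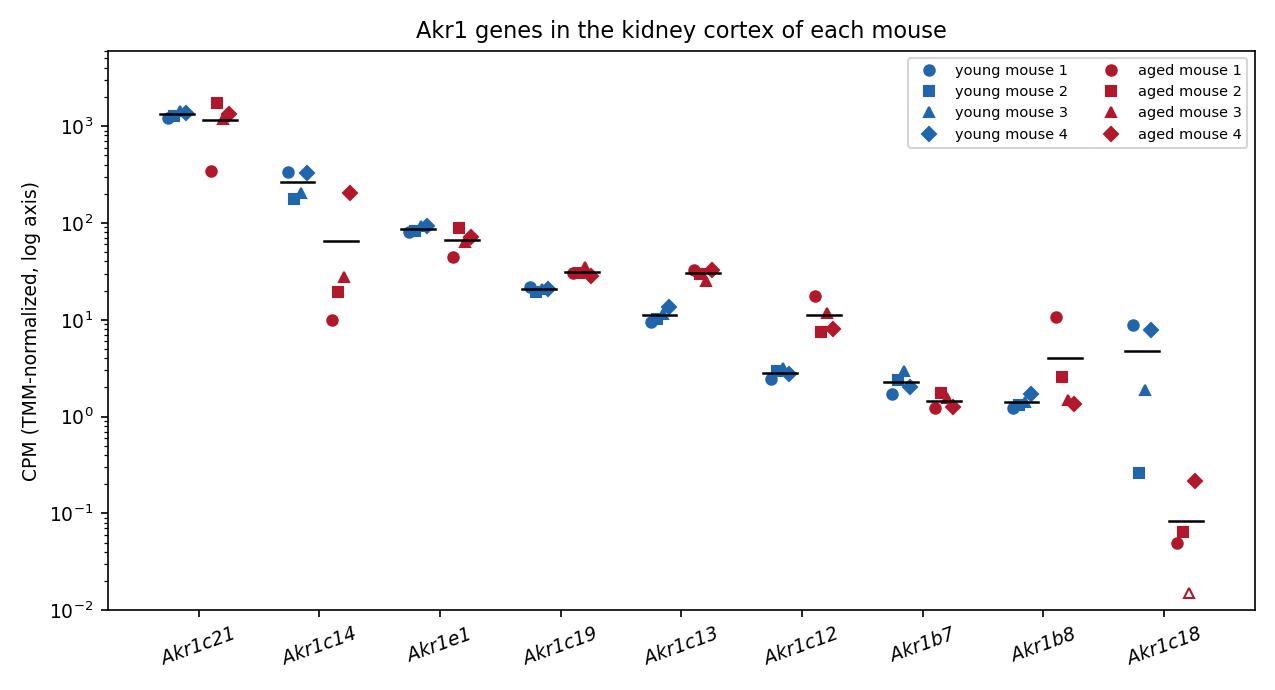
Level in CPM (vertical log axis) of the 9 detected Akr1 genes in each of the 4 young (blue) and 4 aged (red) mice, with horizontal lines at the group means; the open triangle at the bottom right is aged mouse 3, which had 0 counts of Akr1c18. Akr1c13, Akr1c12 and Akr1c19 lay higher in every aged mouse than in every young mouse, and Akr1c14 was near the young levels in aged mouse 4 alone among the aged mice.

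Akr1c12 and Akr1c13 are near-identical copies, so their sequences are shown before their values. Both lie in a cluster on chromosome 13 of mm9 (NCBIM37), Akr1c13 at chr13:4190430-4204842 on the plus strand and Akr1c12 at chr13:4267418-4278679 on the minus strand, each with 9 exons. Their coding sequences, each 972 bases long, were 96.2% identical, with 37 bases differing. The stretch from coding base 34 to 123 is identical in both, so these bases alone do not tell the genes apart. The stretch from base 313 to 402 holds the most differences of any window of 90 bases, 11, which are in capitals.
Akr1c12 and Akr1c13, coding bases 34 to 123: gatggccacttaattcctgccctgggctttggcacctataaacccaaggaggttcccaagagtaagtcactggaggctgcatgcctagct
Akr1c12, coding bases 313 to 402: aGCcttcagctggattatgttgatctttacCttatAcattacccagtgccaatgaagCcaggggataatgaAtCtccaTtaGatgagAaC
Akr1c13, coding bases 313 to 402: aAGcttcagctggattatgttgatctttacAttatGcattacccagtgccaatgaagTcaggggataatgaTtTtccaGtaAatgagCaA
Over all 883 windows of 90 bases the median number of differences was 3, and 154 windows had 0. At the length of a read, 100 bases, 30.8% of the windows along the Akr1c12 transcript and 31.7% of those along Akr1c13 had a copy elsewhere in the genome with at most 2 mismatches, nearly all of them in the other gene of the pair. Pairs that aligned to several places were set aside by the counting program, so the counts of both genes come mostly from the stretches that differ.

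The promoters of the pair, from 250 bases before to 50 bases after the start of transcription, were also alike. They are shown because both genes were higher in aged mice. The windows are from RefSeq on GRCm38.p6, Akr1c13 at chr13:4190937-4191236 (plus strand) and Akr1c12 at chr13:4279350-4279649 (minus strand), with capitals marking bases that differ or have no partner in the alignment.
Akr1c13 promoter: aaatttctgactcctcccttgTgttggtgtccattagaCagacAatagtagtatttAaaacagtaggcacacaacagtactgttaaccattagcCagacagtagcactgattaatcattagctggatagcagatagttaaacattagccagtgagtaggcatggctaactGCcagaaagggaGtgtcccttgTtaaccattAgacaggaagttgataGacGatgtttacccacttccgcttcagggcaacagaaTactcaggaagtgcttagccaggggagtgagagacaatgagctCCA
Akr1c12 promoter: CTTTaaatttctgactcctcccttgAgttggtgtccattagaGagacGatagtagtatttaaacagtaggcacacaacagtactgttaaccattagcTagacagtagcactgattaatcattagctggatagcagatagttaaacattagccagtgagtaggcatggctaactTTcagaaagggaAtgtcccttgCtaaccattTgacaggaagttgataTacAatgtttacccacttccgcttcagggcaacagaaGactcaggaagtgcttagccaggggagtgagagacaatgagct
They were 95.9% identical over 296 aligned positions, with 12 substitutions. The next most alike promoters of members were those of Akr1b7 and Akr1b8 at 67.9% and of Akr1c13 and Akr1c19 at 66.0%. Promoter windows were available for 9 of the 10 members; Akr1b3 had none. On both strands, 5 motifs were searched for, and none was found in the windows of Akr1c12, Akr1c13 or Akr1c14. The core of the antioxidant response element, TGACNNNGC, lay in the window of Akr1c19, where 12.4% of all 32851 promoters hold it. The E-box CACGTG lay in that of Akr1c21 (7.15% of promoters), the D-box TTATGTAA in that of Akr1c18 (0.938%), the steroid receptor half-site AGAACA in that of Akr1b7 (19%), and the HNF1 half-site GTTAAT in those of Akr1b8 and Akr1c21 (7.1%). A match of letters is not a measured binding site, and no match says only that these letters are not in this window.

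Akr1c13 acts on ketones and alcohols of steroids and foreign compounds. Aged mice 1 to 4 gave 671, 462, 474 and 600 counts, and young mice 1 to 4 gave 155, 191, 169 and 227. These counts corresponded to 33.0, 30.1, 25.3 and 32.7 CPM at 30 months and to 9.55, 10.1, 11.5 and 13.4 CPM at 5 months. The lowest aged mouse was above the highest young mouse, and neither group held a mouse far from its own mean. The aged mean was 30.3 ± 3.53 CPM and the young mean 11.1 ± 1.72 CPM (SD, n = 4 each). Its log2 fold change lay between 1.37 and 1.55 and past both thresholds under all 16 other settings tried, aged mouse 1 left out included.

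Akr1c12, its neighbour in sequence, had 362, 115, 218 and 149 counts in the aged mice, against 40, 56, 47 and 47 in young ones. The levels were 17.8, 7.48, 11.7 and 8.12 CPM in aged mice and 2.47, 2.96, 3.20 and 2.78 CPM in young mice. The groups did not overlap, the young mice lay close together, and the aged mice spread widely, with aged mouse 1 highest. The aged mean was 11.3 ± 4.72 CPM and the young mean 2.85 ± 0.309 CPM (SD, n = 4 each). Without aged mouse 1 the log2 fold change was 1.67 ± 0.19, still past both thresholds. Without any 1 of the 4 young mice it stayed between 1.92 and 2.04 but was no longer past the threshold on the adjusted p. Over all genes tested, 8, 35, 14 and 12 passed both thresholds without young mouse 1, 2, 3 and 4, against 287 with all mice.

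The ratio of Akr1c12 counts to Akr1c13 counts was 0.539, 0.249, 0.460 and 0.248 in the aged mice, against 0.258, 0.293, 0.278 and 0.207 in young ones. Aged mice 1 and 3 lay above the young range and aged mice 2 and 4 within it. The pair thus differed between the groups in the same direction, while its internal proportion varied from one aged mouse to the next.

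**Figure D2:**
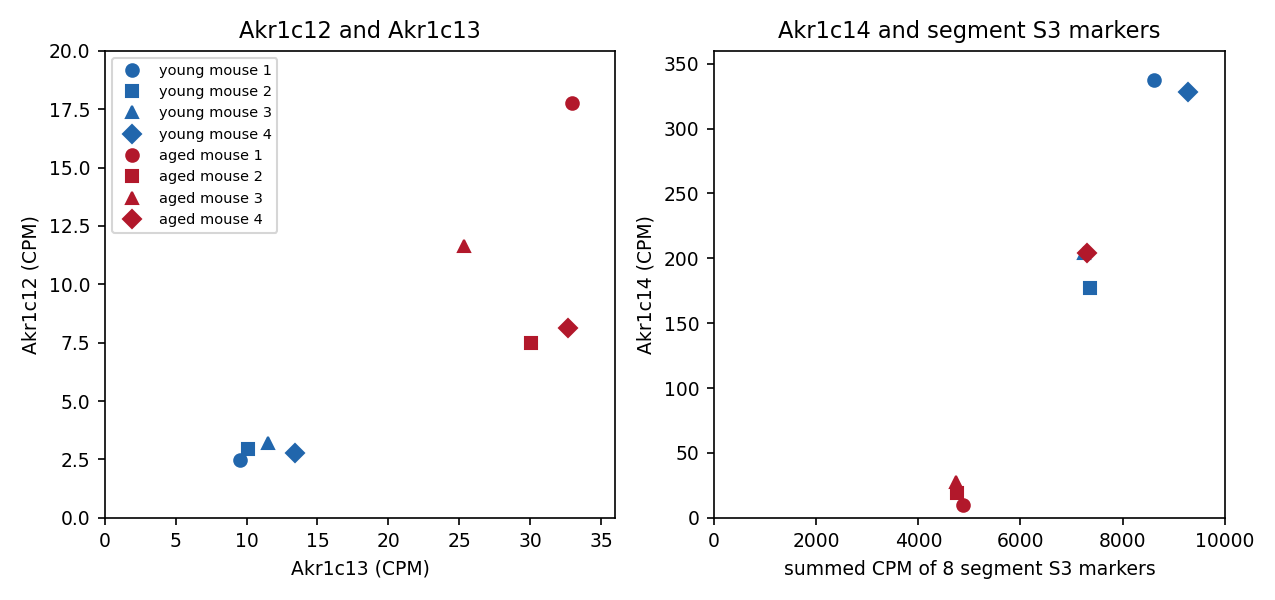
Left, level of Akr1c12 (vertical, CPM) against Akr1c13 (horizontal, CPM) in each mouse. Right, level of Akr1c14 (vertical, CPM) against the summed level of 8 markers of proximal tubule segment S3, mostly Slc27a2 (horizontal, CPM). Aged mice (red) lie apart from young mice (blue) on both axes at left, whereas at right aged mouse 4 (204 CPM of Akr1c14 and 7309 CPM of markers) lies among the young mice.

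Akr1c19, another gene of the same cluster (chr13:4227946-4247927, plus strand), lies between the pair on the chromosome and shares 77.8% of its coding sequence with each. It was counted 621, 471, 654 and 516 times in aged mice and 356, 370, 309 and 352 times in young mice, which was 30.5, 30.6, 35.0 and 28.1 CPM against 21.9, 19.6, 21.0 and 20.8 CPM. The groups did not overlap, and the spread within each was small. Its log2 fold change of 0.58 ± 0.09 passed the threshold on the adjusted p but fell just short of the 1.5-fold threshold, and among members higher in aged mice Akr1c13, at 1.44, was the next one past both thresholds. Akr1c19 passed both thresholds without aged mouse 1 (0.59 ± 0.09) and without aged mouse 4 (0.62 ± 0.09). Over all genes tested, 444 and 733 passed both in those fits, against 287 with all mice. Without any 1 of the 4 young mice the log2 fold change of Akr1c19 stayed between 0.55 and 0.60. It was then no longer past the threshold on the adjusted p, in fits where only 8 to 35 of all genes passed both thresholds. No window of its transcript had a near-identical copy. Akr1c12, Akr1c13 and Akr1c19 were the 3 of 8 tested members with every aged mouse above every young mouse, beside 8.85% of all genes tested. The ratio of Akr1c13 counts to Akr1c19 counts was 1.08, 0.981, 0.725 and 1.16 in aged mice and 0.435, 0.516, 0.547 and 0.645 in young mice, again without overlap.

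Akr1c14 is a hydroxysteroid dehydrogenase that interconverts dihydrotestosterone and androstanediol and also acts on neurosteroids. It lies at the start of the cluster, chr13:4048257-4089668 on the plus strand. Aged mice 1 to 4 gave 204, 297, 519 and 3750 counts, against 5480, 3353, 3005 and 5554 in young mice 1 to 4. In CPM the aged values were 10.02, 19.3, 27.7 and 204, and the young values 338, 177, 204 and 328. Aged mice 1 to 3 lay far below every young mouse, while aged mouse 4 lay within the young range, at the level of young mouse 3. The aged mean was 65.3 ± 92.9 CPM and the young mean 262 ± 82.9 CPM (SD, n = 4 each), and the log2 fold change of -2.002 ± 0.85 did not pass the threshold on the adjusted p. Without aged mouse 4 it was -3.78 ± 0.41 and passed both thresholds, and without aged mouse 1 it was -1.64 ± 0.75 and did not. Over all genes tested, 733 passed both thresholds without aged mouse 4 and 444 without aged mouse 1, against 287 with all mice.

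The summed markers of the last proximal tubule segment, S3, also set aged mouse 4 apart from the other aged mice. Summed over the 8 markers of the list (Slc7a13, Slc22a7, Slc5a1, Slc27a2, Acsm3, Slc22a13, Aqp1 and Cyp7b1), their level was 4877, 4764, 4745 and 7309 CPM in the aged mice, against 8615, 7371, 7239 and 9276 CPM in young ones. On this sum aged mouse 4 was above young mouse 3, and the other 3 aged mice were below all young mice. Aged mouse 4 was the highest aged mouse for 6 of the 8 markers and not for the other 2. These were Slc5a1 (78.6, 92.9, 52.0 and 89.0 CPM in aged mice) and Slc22a13 (25.8, 16.1, 3.26 and 15.6 CPM). Slc27a2 made up most of the sum in every mouse. Its level was 3950, 3480, 3590 and 5094 CPM in aged mice and 5065, 4865, 4638 and 5662 CPM in young mice. All 8 markers had a log2 fold change below 0, with a median of -1.20, and 1 of them, Acsm3, passed both thresholds (-2.80 ± 0.62, adjusted p = 0.0491, edgeR quasi-likelihood with Benjamini-Hochberg adjustment). Acsm3 stayed past them with aged mouse 4 left out and lost the call with any other single mouse left out (adjusted p up to 0.132). Over all genes tested, 733 were called without aged mouse 4 and 8 to 444 in the fits where Acsm3 lost its call. The part of these marker levels in the values of Akr1c14 was not tested.

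Akr1c18, the hydroxysteroid dehydrogenase that inactivates progesterone in the ovary, lies next to Akr1c14 (chr13:4131861-4149900, minus strand). It had 1, 1, 0 and 4 counts in the aged mice, against 145, 5, 28 and 132 in young ones. In CPM this was 0.0491, 0.0650, 0 and 0.218 against 8.94, 0.264, 1.90 and 7.80. The aged mice were at or near the floor of 3 counts, young mouse 2 was little above it, and the other young mice were clearly above it, so the groups did not overlap but the young mice varied widely. Over the groups, 6 counts in aged mice stood against 310 in young mice, a ratio of 0.0178 at equal depth with an exact 95% interval of 0.00646 to 0.0391 that covers counting error only and not the spread between mice. Akr1c18 did not pass the filter on low counts and so had no place among the 8 members tested. Its young levels followed the order of Akr1c14 in that young mice 1 and 4 were highest for both.

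Akr1c21, a hydroxysteroid dehydrogenase of the mouse kidney known for making epitestosterone, was the most abundant member in every mouse. It lies at chr13:4573321-4585787 on the plus strand, near the far end of the cluster. Its levels were 346, 1735, 1197 and 1333 CPM in the aged mice, against 1216, 1282, 1424 and 1359 CPM in young ones. Aged mouse 1 was far below and aged mouse 2 above every young mouse, and the groups overlapped. The log2 fold change was -0.20 ± 0.39 with all mice and 0.11 ± 0.13 without aged mouse 1, and passed no threshold either way. Aged mouse 1 was also the mouse with the lowest summed S1 and S2 markers (18305 CPM), and the part of these in the value of Akr1c21 was not tested. Akr1c21 alone made up 70.2% to 90.6% of the summed CPM of the 10 members in aged mice and 72.4% to 81.2% in young mice. The share of Akr1c14 was 1.01% to 12.2% in aged and 11.2% to 20.1% in young mice.

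Counts of Akr1c14 for each count of Akr1c21 were 0.0289, 0.0111, 0.0232 and 0.153 in the aged mice, against 0.278, 0.138, 0.144 and 0.241 in young ones. Aged mouse 4 was inside the young range and the other 3 aged mice were below it. Aged mouse 1, low for both genes, lay with aged mice 2 and 3 on this ratio. The summed level of the 10 members was 493, 1915, 1364 and 1680 CPM in aged mice and 1680, 1579, 1763 and 1828 CPM in young mice, a sum that mainly follows Akr1c21.

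Akr1e1, which reduces anhydrofructose from glycogen breakdown, closes the cluster at chr13:4590003-4608420 on the minus strand. Its levels were 44.0, 88.1, 64.1 and 70.8 CPM in aged mice and 80.3, 82.9, 92.7 and 92.5 CPM in young mice. Aged mice 1, 3 and 4 were below every young mouse, and aged mouse 2 was within the young range. The log2 fold change was -0.38 ± 0.18, and -0.23 ± 0.11 without aged mouse 1, in neither case past the threshold on the adjusted p.

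**Figure D3:**
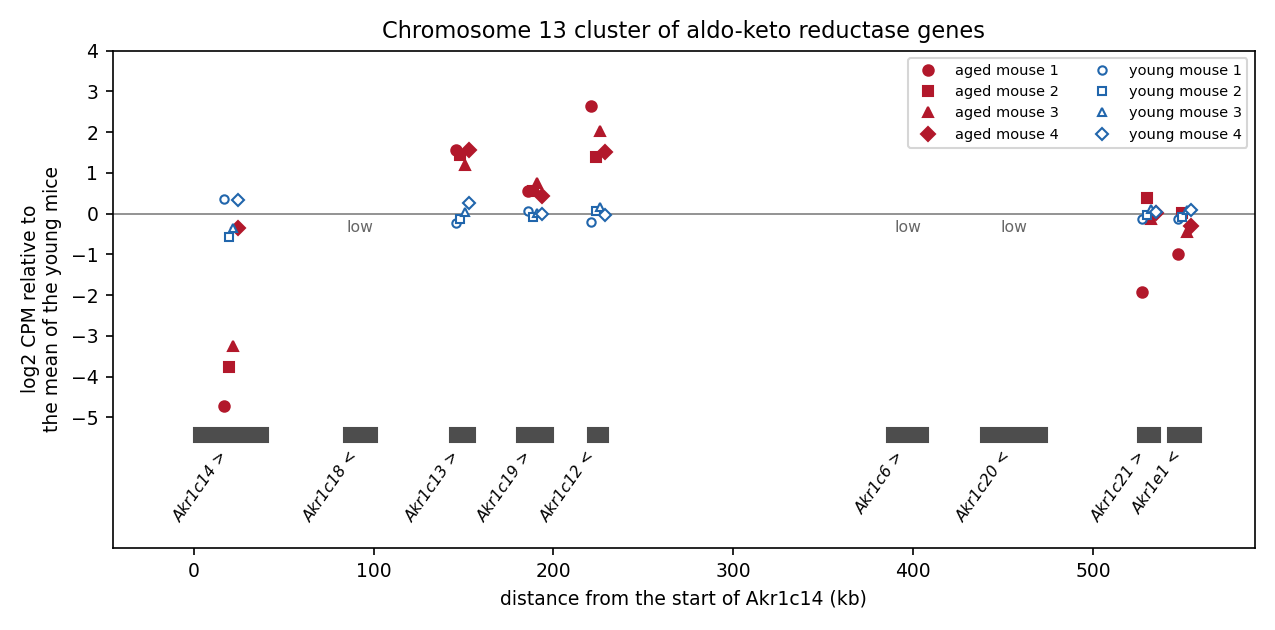
Level of each gene in each mouse (vertical axis, log2 CPM relative to the mean of the young mice) at its place in the chromosome 13 cluster (horizontal axis, kb from the start of Akr1c14); bars mark the genes, arrowheads their strand, and "low" the 3 genes that did not pass the filter on low counts. Akr1c13, Akr1c19 and Akr1c12 sit next to each other and lay above 0 in all aged mice, with Akr1c14 below 0 in the aged mice on one side and Akr1c21 and Akr1e1 around or below 0 on the other.

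The chromosome 13 cluster ran over 560.2 kb, from base 4048257 to 4608420, and held 9 aldo-keto reductase genes among 10 annotated genes, 7 of them members. From its start the order was Akr1c14, Akr1c18, Akr1c13, Akr1c19, Akr1c12, Akr1c6, Akr1c20, Akr1c21 and Akr1e1. The 3 members that were higher in every aged mouse were thus adjacent, and both of their neighbours toward the start, Akr1c18 and Akr1c14, were lower in at least 3 aged mice than in every young mouse. Genes on both strands were found among those higher and those lower. Akr1c6 had 0 to 11 counts and Akr1c20 1 to 46 counts per library, and neither passed the filter.

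The Akr1b members lie in a second cluster on chromosome 6, which spanned 119.2 kb and held 4 aldo-keto reductase genes. Akr1b7 (chr6:34362334-34373142, plus strand), an enzyme of the adrenal gland and vas deferens that clears aldehydes from steroid synthesis and lipid oxidation, was counted 23 to 29 times in aged and 28 to 45 times in young mice. Its levels were 1.23, 1.76, 1.55 and 1.25 CPM in aged mice and 1.73, 2.38, 2.99 and 2.01 CPM in young mice. Aged mouse 2 was slightly above young mouse 1, and the other aged mice were below all young mice. The log2 fold change was -0.65 ± 0.24 and did not pass the threshold on the adjusted p. Because Akr1b7 is known from the adrenal gland, 8 adrenal cortex markers were examined, and they summed to 3.05 to 8.69 CPM in aged and 2.06 to 2.42 CPM in young mice. Of these, Cyp11b1, Cyp21a1 and Nr5a1 were at 0 in all 8 mice, and Cyp11a1 and Cyp11b2 had at most 2 counts in any mouse. Mean CPM in aged against young mice was 2.36 against 1.74 for Star, 1.93 against 0.247 for Mrap and 0.768 against 0.255 for Mc2r. In aged mice 1 to 4 Mrap was at 5.16, 1.30, 0.428 and 0.817 CPM, and the adipose markers summed to 411, 102, 35.8 and 59.5 CPM. Whether the sum of the 8 adrenal cortex markers reflects adrenal tissue was not tested. The part of these 8 markers in the value of Akr1b7 was not tested either.

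Akr1b8 (chr6:34304119-34318463, plus strand) encodes an aldehyde reductase first known as a gene induced by fibroblast growth factor. Its counts were 218, 39, 28 and 25 in aged mice and 20, 25, 21 and 29 in young mice. In CPM these were 10.7, 2.54, 1.497 and 1.36 in aged mice, against 1.23, 1.32, 1.43 and 1.71 in young mice. Aged mouse 1 was far above all others, aged mouse 2 was above the young range, and aged mice 3 and 4 were within it. The log2 fold change was 1.504 ± 0.66 with all mice and 0.32 ± 0.28 without aged mouse 1, so that 1 library set most of the difference. Adipose markers were highest in that mouse as well (411 CPM), and their part in the value of Akr1b8 was not tested. Akr1b7 and Akr1b8 share 84.9% of their coding sequence, and 2.54% and 5.56% of their read-length windows had a near-identical copy.

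Akr1b3, aldose reductase itself (chr6:34253934-34267497, minus strand), was listed at 0 in all 8 libraries. Of the read-length windows along its transcript, 94.5% had a near-identical copy at 1 or more of 4 other places in the genome, and 92.7% were matched by the transcript of Gm6736, which has no row in the count tables. Pairs that aligned to several places were set aside, while 72 windows had no near-identical copy. Whether the copies account for the 0 was not tested. The 0 is not taken as a level for this gene, and the floor of 3 counts limits only the pairs that aligned to 1 place.

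**Figure D4:**
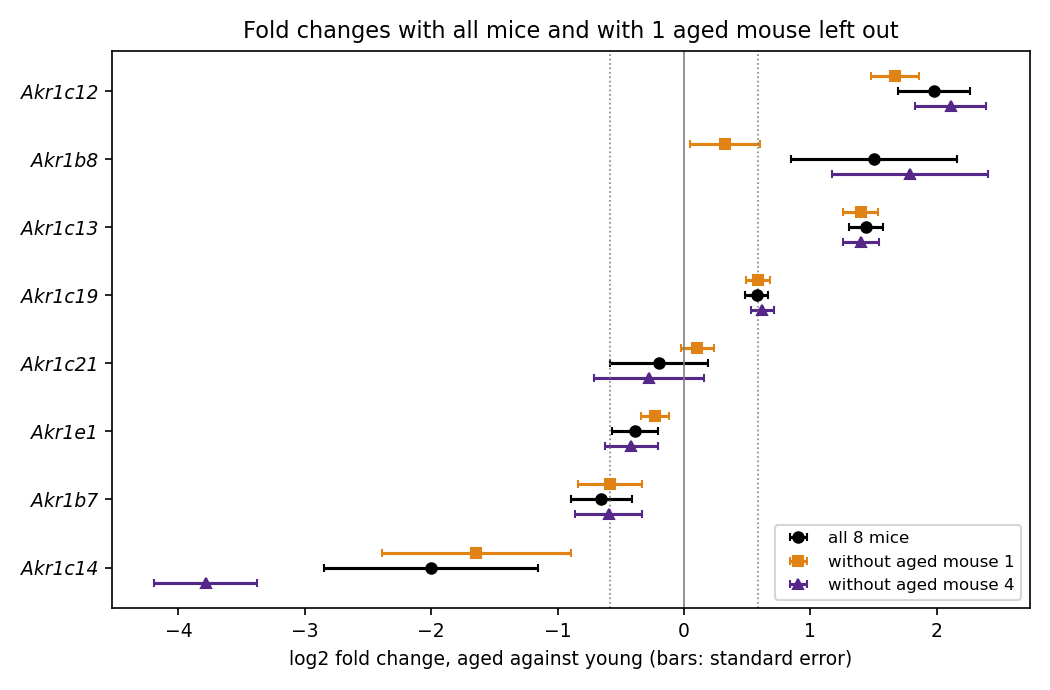
Log2 fold change, aged against young (horizontal axis, with standard errors), of the 8 members that passed the filter, with all 8 mice (black), without aged mouse 1 (orange) and without aged mouse 4 (purple); dotted lines mark a fold of 1.5. Akr1c13 stayed near 1.44 in each, Akr1b8 dropped to 0.32 without aged mouse 1, and Akr1c14 went to -3.78 without aged mouse 4.

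Levels were compared between genes on FPKM, which divides CPM by the summed exon length in kilobases, and this order was not used to choose the members. Over the 8 mice the order by mean log2 FPKM was Akr1c21, Akr1c14, Akr1e1, Akr1c19, Akr1c13, Akr1c12, Akr1b7, Akr1b8 and Akr1c18. Akr1c21 reached 797 ± 404 FPKM in aged and 913 ± 62.5 FPKM in young mice, and Akr1c14, next in the order, 22.0 ± 31.3 and 88.1 ± 27.9 FPKM (SD, n = 4 each). Each of the 8 pairs of neighbours was compared within mice by a two-sided exact permutation test that flips the sign of each mouse's difference, adjusted over the 8 pairs, for which the smallest unadjusted p is 0.0078125. Akr1c21 was above Akr1c14 in 8 of 8 mice, by 4.70 ± 1.75 on the log2 FPKM scale (SD, n = 8, exact permutation test, adjusted p = 0.0208). Akr1c13 was above Akr1c12 in 8 of 8 mice, by 1.58 ± 0.475 (SD, n = 8, exact permutation test, adjusted p = 0.0208). Akr1c12 was above Akr1b7 in 8 of 8 mice, by 1.63 ± 1.44 (SD, n = 8, exact permutation test, adjusted p = 0.0208).

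The other 5 neighbour pairs were not separated over the 8 mice pooled, where the spread includes the difference between the groups. Akr1c14 and Akr1e1 (adjusted p = 0.482, exact permutation test), Akr1e1 and Akr1c19 (adjusted p = 0.125), Akr1c19 and Akr1c13 (adjusted p = 0.482), Akr1b7 and Akr1b8 (adjusted p = 0.898), and Akr1b8 and Akr1c18 (adjusted p = 0.3) each changed places in at least 2 of 8 mice. In every young mouse the first named gene was the higher one, except for Akr1b8 and Akr1c18. Among aged mice Akr1c14 was below Akr1e1 in all but mouse 4, and Akr1c19 below Akr1c13 in all but mouse 3. Akr1b8 was above Akr1c18 in every aged mouse. Orders within a group were not tested. By mean log2 FPKM within each group, Akr1c13 was the 5th of the 9 detected members in young mice and the 2nd in aged mice, at 7.96 ± 1.23 and 21.6 ± 2.52 FPKM (SD, n = 4 each). Akr1c14 was 2nd in young and 5th in aged mice, and Akr1c18 7th and 9th. With the length counted only over windows without a near-identical copy, Akr1c13 moved to 3rd over all 8 mice, and 5 genes changed rank.

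The genes outside the list whose pattern over the mice was most like that of Akr1c13 were sought among all genes tested. Likeness was the root mean square difference, over the 8 mice, of log2 CPM after subtracting each gene's young mean. The 5 nearest were Pigr (0.190), which carries antibodies across epithelia, the chemokine Ccl6 (0.210), Ndrg1 (0.222), a gene known to respond to stress and low oxygen, the drug transporter Abcb1a (0.260) and the lipoxygenase Alox5 (0.261). With the 4 aged mice alone, 3 of the 5 were again among the nearest. The measure includes the difference between the groups, so the difference of these genes between aged and young mice is not a result of its own.

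Outside the members, the other aldo-keto reductases showed no change past the thresholds. Of 11 listed, 7 passed the filter, and 0 passed both thresholds in edgeR, DESeq2 or limma-voom, while 2 had an unadjusted p below 0.05. Over all 13944 genes tested, edgeR called 287, DESeq2 873 and limma-voom 483. Akr1b10 and Akr7a5 were lower in every aged mouse than in every young mouse, as were 10% of all genes tested. Of the 7, 0 were higher in every aged mouse, beside 8.85% of all genes. How many of all genes had an unadjusted p below 0.05 was not counted, here and for the lists below. Akr1a4, the aldehyde reductase of vitamin C synthesis in mice, was at 1219 ± 283 CPM in aged and 1524 ± 139 CPM in young mice (SD, n = 4 each), and its log2 fold change was -0.32 ± 0.18. Akr1b10, the member of the chromosome 6 cluster between Akr1b8 and Akr1b7, had a log2 fold change of -0.51 ± 0.15 (adjusted p = 0.0915, edgeR quasi-likelihood with Benjamini-Hochberg adjustment). The values were -0.29 ± 0.13 for Akr7a5, which reduces aflatoxin aldehyde, and -0.02 ± 0.16 for Akr1d1, a steroid reductase of bile acid synthesis, whose sign changed with upper-quartile scaling and with library size only. The potassium channel subunits of this superfamily were at 0.63 ± 0.34 (Kcnab1), -0.65 ± 0.38 (Kcnab2) and 0.84 ± 0.36 (Kcnab3).

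Among 15 other carbonyl and polyol reductases, 2 rose and 0 fell, beside 1.17% higher and 0.889% lower of all genes tested. DESeq2 called 4 genes of this list and limma-voom 3, beside 873 and 483 of all 13944 genes tested. An unadjusted p below 0.05 was seen for 6 genes of the list. The 2 that rose in edgeR were carbonyl reductases. Cbr1 went from 24.3 ± 2.59 to 79.2 ± 38.3 CPM (SD, n = 4 each), a log2 fold change of 1.71 ± 0.33 (adjusted p = 0.0390, edgeR quasi-likelihood with Benjamini-Hochberg adjustment). Cbr3 went from 1.38 ± 0.268 to 6.35 ± 3.77 CPM, 2.20 ± 0.47 (adjusted p = 0.0472). Of 21 Nrf2 target genes tested, the transporter Abcc4 (1.65 ± 0.26, adjusted p = 0.0255) and the glutathione transferase Gsta3 (0.68 ± 0.12, adjusted p = 0.0361) rose, and Gclm, a subunit of the enzyme that starts glutathione synthesis, fell by 0.99 ± 0.19 on the log2 scale (adjusted p = 0.0372). DESeq2 called 9 of these 21 genes and limma-voom 6, beside 873 and 483 of all 13944 genes tested. An unadjusted p below 0.05 was seen for 12 of the 21. In the NADPH and osmotic lists that follow, DESeq2 and limma-voom each called 1 gene a list, as edgeR did. Of 14 genes that supply NADPH, the cofactor of most Akr1 enzymes, 1 fell, malic enzyme Me1 (-0.96 ± 0.21, adjusted p = 0.0495), and Idh1 was at 0.13 ± 0.34. Of 7 genes of the osmotic response, in which Akr1b3 takes part, 1 fell, the chaperone Hspa4l (-0.76 ± 0.13, adjusted p = 0.0294). The other 6 had a log2 fold change above 0, among them the taurine transporter Slc6a6 at 0.53 ± 0.22, and the list median was 0.53. Each of the 7 genes called in the lists of this paragraph lost its call with any 1 young mouse left out (adjusted p 0.0667 to 0.142). All 7 also lost it without aged mouse 2 and without aged mouse 3, except that Abcc4 kept it without aged mouse 2 and Hspa4l without aged mouse 3. Over all genes, the fits without 1 young mouse called 8 to 35. Those without aged mouse 2 and aged mouse 3 called 119 and 115, against 287 with all mice.

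The partners of Akr1c enzymes in steroid and prostaglandin metabolism showed no called gene with all 8 mice. Of 16 steroid dehydrogenases and reductases tested, 0 passed both thresholds in edgeR, DESeq2 or limma-voom, beside 287, 873 and 483 of all 13944 genes. Of the 16, 3 had an unadjusted p below 0.05. The most abundant were Hsd17b4, at 0.21 ± 0.18, and Hsd17b11, at -0.69 ± 0.35 (log2 fold change ± SE). Without aged mouse 4, 2 genes of this list were called lower in aged mice, Hsd17b11 (-1.15, adjusted p = 0.0278) and the steroid reductase Srd5a2 (-1.57, adjusted p = 0.0403, edgeR quasi-likelihood with Benjamini-Hochberg adjustment). That fit called 733 of all 14066 genes tested, 404 of them lower in aged mice. Of 14 genes of prostaglandin synthesis and response, 0 passed in any of these tools and 4 had an unadjusted p below 0.05, with Ptges3 at -0.36 ± 0.11 and the receptor Ptgfr at 0.20 ± 0.11. The medians of the list log2 fold changes were -0.22 and 0.20, beside 0.03 for all genes tested.

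Across the 10 lists of cell type markers, 2 held a gene past both thresholds, Acsm3 among the S3 markers and the macrophage receptor Csf1r (-1.004 ± 0.22) among the leukocyte markers, both lower in aged mice. Csf1r was the 1 tested leukocyte marker with a log2 fold change below 0, while 6 were above 0 and the list median was 0.49. Csf1r lost its call with any 1 young mouse, aged mouse 2 or aged mouse 3 left out (adjusted p up to 0.132). Over all genes, 8 to 35 were called without 1 young mouse, and 119 and 115 without those aged mice. The other 8 lists, of proximal tubule S1 and S2, thick ascending limb, distal convoluted tubule, collecting duct, podocyte, endothelium, adrenal cortex and adipose tissue, held 47 tested genes, of which 0 passed in edgeR, 5 passed in DESeq2, 4 passed in limma-voom and 15 had an unadjusted p below 0.05. The 5 and 4 calls of DESeq2 and limma-voom stand beside 873 and 483 of all 13944 genes tested. Except for the adrenal list, whose sum was at most 8.69 CPM in any mouse, the summed levels of these 8 lists overlapped between aged and young mice.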

How the data were processed

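RNA-Seq was performed on the kidney cortex of 4 aged and 4 young male mice, with 1 library per mouse. The authors aligned 100-base read pairs to mm9 with TopHat2 and counted them by strand with HTSeq on RefSeq genes, and they deposited raw counts per gene. CASAVA 1.8.2 and SAMtools are also named in the submitters' processing notes. The labels give the groups and the age of 30 months used here, whereas the study's methods give a mean age that differs slightly. The table of each single library was read, and the table that joins them was not used here. Lines that name no gene were left out of library sizes. Of each table's total, 34.3% to 39.1% were pairs with several alignments, 20.0% to 29.9% lay on no gene and 0.231% to 0.346% were ambiguous. Every 2 libraries differed by more than counting noise (chi-square per gene of at least 8.98).

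Counts were tested in R 4.3.3 with edgeR 4.0.16 (quasi-likelihood, TMM, filterByExpr with a minimum count of 10, no covariate), with Benjamini-Hochberg adjustment over all genes tested. Log2 fold changes used edgeR's default prior count, and SE is the absolute log2 fold change divided by the square root of F. A prior count of 2 was used only for log2 CPM in the search for genes most alike and in the correlations of same-numbered mice. FPKM used exon lengths of the GENCODE annotation of NCBIM37 and a pseudocount of 0.01 on the log2 scale. Near-identical copies were sought with BLAST 2.17.0 in windows of 100 nt at 98% identity. Sequences were aligned with Biopython 1.88 in Python 3.11.15. The scripts were tested on simulated counts.

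The members and lists were chosen with earlier results of these data known. Named genes were all members, the tested genes of the list of other aldo-keto reductases, the called genes of each other list or otherwise its most abundant genes up to 2, and the 5 genes most like Akr1c13. Srd5a2 and the S3 marker, leukocyte marker and Akr1c14 neighbour genes that are named beyond this were chosen after their values were seen. As alternatives, scaling by DESeq2 size factors, the upper quartile or library size only was tried, with DESeq2 1.42.0, limma-voom (limma 3.58.1) with sample quality weights, other filters, a replicate block and each mouse left out in turn. Protein sequences were not analysed here.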

Additional observations from a re-analysis of the deposited data

Results flagged for a closer look

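In 40 groups of 4 mice, the gap between the highest or lowest mouse and its nearest neighbour was compared with the range of the group by Dixon's criterion. It was exceeded in 3 of the 40 groups, where chance alone gives about 1 in 20, or 2. Akr1b8 in aged mouse 1 was separated from its nearest neighbour by 0.874 of the range (10.7 CPM against 1.36 to 2.54 CPM). Akr1c14 in aged mouse 4 lay apart by 0.909 of the range (204 CPM against 10.02 to 27.7 CPM). The summed S3 markers in aged mouse 4 lay apart by 0.948 of the range (7309 CPM against 4745 to 4877 CPM). The last of these concerns the same mouse as Akr1c14, and its sum is mostly Slc27a2.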

How the results depend on the processing

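The number of all genes past both thresholds was 287 in the edgeR fit and changed to 488 with library size only, 873 with DESeq2, 483 with limma-voom and 130 with a replicate block, and it lay between 8 and 733 with 1 mouse left out. Without 1 young mouse it lay between 8 and 35. The members past both thresholds were 2 and lay between 1 (without young mouse 1, 3 or 4) and 5 (without aged mouse 4, when Akr1c14, Akr1c18 and Akr1c19 were added). Akr1c19 was added with upper-quartile scaling and with library size only, Akr1c14 with limma-voom, and Akr1c18 with no filter on low counts (log2 fold change -5.73 ± 1.15) and without young mouse 2. The log2 fold change of Akr1c21 turned from -0.20 to 0.11 without aged mouse 1 and lay between -0.46 and 0.11 with 1 mouse left out. That of Akr1d1 turned from -0.022 to 0.016 with upper-quartile scaling, 0.082 with library size only and 0.056 with limma-voom, and lay between -0.11 and 0.12 with 1 mouse left out. The cause was not tested. With library size only, 75.4% of the calls were higher in aged mice, against 56.8% with TMM and 65.3% with upper-quartile scaling, and the median of all genes was 0.14 against 0.03, a shift that Akr1c13 and Akr1c12 exceeded. The number of neighbour pairs that differed in level was 3 under every alternative run. The genes were ranked anew in each run, so the pairs were not always the same. With length over windows without a near-identical copy, Akr1c13 and Akr1c12 were not neighbours, and Akr1b8 in place of Akr1b7 came after Akr1c12. The replicate numbers were not taken as pairs, since the correlations of same-numbered mice's deviations were 0.206, 0.0380, 0.199 and -0.0302. With the replicate block, members past both thresholds numbered 2, and Cbr1, Abcc4, Gsta3, Hspa4l and Me1 lost their calls (adjusted p 0.0506 to 0.0753), as did Akr1c19 on the adjusted p alone.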

Other observations

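The genes most like Akr1c14 over the 8 mice were sought after its values had been seen, by the same measure as for Akr1c13. They were the carboxylesterase Ces2b (root mean square difference 0.508 on the log2 scale), the collagen gene Col19a1 (0.540), Pzp (0.542), which encodes a protease-binding plasma protein, Gm1653 (0.654) and 9030619P08Rik (0.671). With the aged mice alone, 4 of the 5 were again among the nearest. Relative to the young mean, log2 CPM of Ces2b was -4.57, -3.39, -3.64 and -1.32 in aged mice 1 to 4, and that of Pzp was -4.45, -3.10, -2.51 and 0.14. Both were chosen for their likeness to Akr1c14 in these mice, so the order they share with it is not a result of its own. Of the S3 markers, Slc22a7, an organic anion transporter, was at 0.688, 2.41, 1.07 and 22.3 CPM in aged mice and at 162, 47.0, 75.9 and 147 CPM in young mice, with aged mouse 4 highest of the aged mice. The same held for 6 of the 8 S3 markers, Slc22a7 included, and not for the other 2, Slc5a1 and Slc22a13.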
